A study of Mus musculus with 6 samples.

Results

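MHC class I molecules present peptides from inside the cell to CD8 T cells. The 10 genes described here encode 4 class I heavy chains (H2-K1, H2-D1, H2-T23 and H2-Q4), their light chain (B2m), the peptide transporter and its docking chaperone (Tap1, Tap2 and Tapbp), the aminopeptidase that trims peptides to length (Erap1) and the transactivator of class I genes (Nlrc5). They were picked by symbol, with earlier results of these data known, and all 10 were found among the 39017 genes of the count table. All 10 had enough counts to be tested, as did 18268 genes in all. RNA had been sequenced from iGBs, germinal centre-like B cells induced in culture, to ask what loss of the arginine methyltransferase Prmt1 changes in their transcripts.

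Both groups came from spleens of C57BL6/J mice that carry Cγ1-cre, a recombinase driven from the immunoglobulin γ1 locus, which B cells transcribe after activation. Control mice were Cγ1-cre and Prmt1-null mice were Cγ1-cre Prmt1 f/f, with 3 mice and 3 libraries per group, 2 from females and 1 from a male. Control replicate 1 and Prmt1-null replicate 3 were the male libraries. The labels of the samples do not give the age of the mice. Purified B cells of every mouse had grown for 3.5 days with IL-4 (5 ng/ml per the labels) on irradiated 40LB feeder cells, which supply CD40L and BAFF. The feeders were then depleted with an antibody to their own class I molecule H2Kd, so that any feeder RNA left behind could add class I reads. Because the allele is deleted only once Cγ1-cre is active, a Prmt1-null culture may hold cells that kept the gene. In such bulk libraries, fewer cells of a type and less RNA per cell cannot be told apart.

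A class I heavy chain folds in the endoplasmic reticulum with B2m and is held by tapasin, the product of Tapbp, beside the TAP transporter until a peptide of good fit is bound. Classical class I promoters are known to carry an NF-κB-type enhancer A, an interferon response element bound by IRF factors, and an SXY module whose X1, X2 and Y boxes bind RFX, CREB/ATF and NF-Y and are read by Nlrc5. B cells express class I at all stages, and interferon and NF-κB signals raise it.

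Each library held between 45343250 and 62774232 reads counted on genes, and 3 counts corresponded to 0.0478 to 0.0662 CPM, a count divided by the size of its library. The target gene Prmt1 was at 3964, 3924 and 4838 normalized counts in Control libraries 1 to 3 and at 1745, 1478 and 1477 in Prmt1-null libraries 1 to 3, a Prmt1-null mean of 36.9% of Control. Its log2 fold change was -1.44, with an adjusted p of 1.11e-05 from edgeR's quasi-likelihood test, and the groups did not overlap. All 7 B cell markers were detected, and their summed level was 6710 to 7000 CPM in Control and 6760 to 7200 CPM in Prmt1-null iGBs. The 22 feeder fibroblast markers summed to 39.3 to 42.2 and 40.2 to 49.9 CPM, with Postn and Lum at 0 in every library.

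The promoters of the classical heavy chain genes and of B2m are shown first, because these are the sequences that class I transcription is known to be read from. RefSeq windows of assembly GRCm38.p6, cut to the 250 bases before each transcript start, were at hand for 8 of the 10 genes and not for Tap2 or Nlrc5. Exact matches were sought on both strands for GGGGATTCC (enhancer A), AANNGAAA (IRF-type), TGACG (X2-type) and ATTGG (Y box, the inverted CCAAT). In the stretches below, written 5′ to 3′ on the strand of the gene, capitals mark these matches. TTTCACTT is the IRF-type match on the other strand. No match of one motif overlapped a match of another in these genes.
H2-K1 enhancer A and IRF, chr17:34000429-34000458, minus strand: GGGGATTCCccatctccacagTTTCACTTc
H2-D1 enhancer A and IRF, chr17:35262923-35262952, plus strand: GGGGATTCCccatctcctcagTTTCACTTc
H2-K1 X2 and Y, chr17:34000359-34000388, minus strand: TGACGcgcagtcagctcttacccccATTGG
H2-D1 X2 and Y, chr17:35262993-35263022, plus strand: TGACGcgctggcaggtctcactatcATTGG
B2m X2 and Y, chr2:122147609-122147638, plus strand: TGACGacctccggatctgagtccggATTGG

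The enhancer A stretches of H2-K1 and H2-D1 were identical at 29 of 30 bases. The first base lay 111 bases before a RefSeq start of H2-K1 and 125 bases before another. For H2-D1 it lay 171 bases before the start. GGGGATTCC stood in 70 of the 32851 windows of all genes (0.2%) and, among these 8 genes, in H2-K1 and H2-D1. The X2 and Y stretches were identical at 23 of 30 bases between H2-K1 and H2-D1, at 13 between H2-K1 and B2m and at 12 between H2-D1 and B2m, letters of the motifs included. In all 3 the first bases of TGACG and ATTGG were 25 bases apart on the strand of the gene. Only 18 of the 32851 windows (0.055%) held this spacing, which was chosen after the matches in these genes had been seen. The shorter motifs were common in all windows: AANNGAAA stood in 21.3%, TGACG in 17.8% and ATTGG in 33.8%, and in 5, 5 and 7 of the 8 genes. H2-Q4 also held TGACG and ATTGG, but with ATTGG first, at 79 and 73 bases before the start. Both H2-D1 stretches also lie in an exon of a longer annotated H2-D1 transcript. These matches describe letters only and say nothing of binding in iGBs.

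The levels of the 10 genes covered a wide range. On a scale per length (FPKM, fragments or reads scaled to exon length and to normalized library size), B2m averaged 6680 over the 6 libraries and ranked 5 among 18132 tested genes with a known length. H2-K1 followed at 220 FPKM and H2-D1 at 201 FPKM. Next came Tapbp at 76.4 FPKM, H2-T23 at 46.4, Tap1 at 43.8 and H2-Q4 at 38.6. Erap1 at 22.6 FPKM and Tap2 at 16.2 FPKM were lower, and Nlrc5 was the lowest at 4.63 FPKM, rank 8371. The group means ± SD of H2-K1 and H2-D1 were within each other's spread in Prmt1-null iGBs (236 ± 13.3 and 225 ± 18.8 FPKM, n = 3) and stood 1 SD apart or more in Control iGBs (204 ± 13.9 and 177 ± 18.9 FPKM, n = 3). H2-T23 and Tap1 were neighbours whose levels lay within each other's spread in Prmt1-null iGBs (48 ± 2.37 and 46.3 ± 2.68 FPKM). Even the least abundant gene, Nlrc5, had at least 1633 raw counts in every library.

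All 10 genes had a log2 fold change above 0 in Prmt1-null against Control iGBs, as did 49.9% of all genes tested. The fold changes were small, from 0.027 for Erap1 to 0.345 for H2-D1. None of the 10 passed an adjusted p under 0.05 in edgeR's quasi-likelihood test in either direction, where 1.19% of all genes did (0.591% as higher). At an unadjusted p under 0.05, 4 of the 10 were higher (H2-K1, H2-D1, H2-Q4 and Tap1) against a background of 6.5% of all genes. Every Prmt1-null library exceeded every Control library for 3 of the 10 (H2-K1, H2-D1 and B2m) against 9.95% of all genes. The 10 had a median log2 fold change of 0.154, while the median over all genes tested was -0.000816. These genes share regulators and libraries, so their number does not count independent observations.

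**Figure D1:**
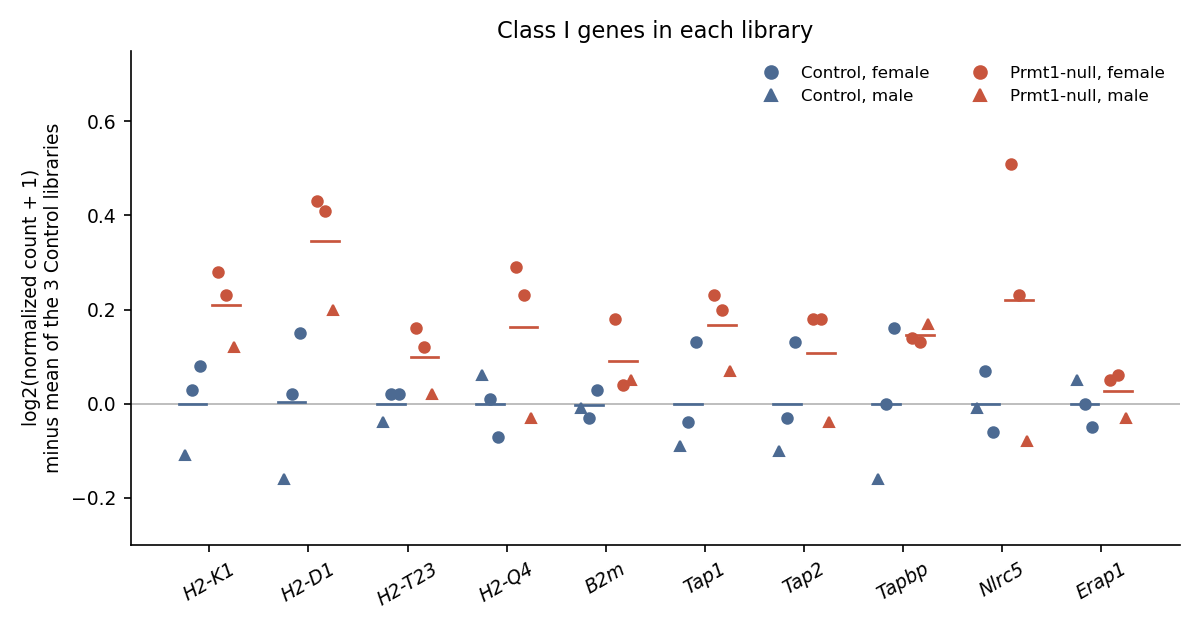
Each of the 10 class I genes in each of the 6 libraries, as log2(normalized count + 1) minus the mean of the 3 Control libraries (y axis). Circles are libraries of females, triangles libraries of males and horizontal lines group means. The Prmt1-null mean lies above the Control mean for every gene, and H2-K1, H2-D1 and B2m are the genes whose groups do not overlap.

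H2-K1 and H2-D1 encode the classical heavy chains that present peptides to CD8 T cells in C57BL/6 mice. H2-D1 (chr17:35262730-35267499, plus strand) had 22520, 25490 and 27930 normalized counts in Control and 33960, 33420 and 29050 in Prmt1-null iGBs. Every Prmt1-null library stood above every Control library. The means were 25310 ± 2710 and 32140 ± 2690 (SD, n = 3), so that Prmt1-null iGBs held 127% of the Control level. This was a log2 fold change of 0.345 with a standard error of 0.0841, a 95% interval of 0.164 to 0.525 and an adjusted p of 0.0685 from edgeR's quasi-likelihood test. The call of H2-D1 depended on the analysis. Its adjusted p was 0.00142 in DESeq2, 0.0367 in limma-voom and 0.00813 with sex as an edgeR covariate. It was 0.106 in edgeR with the replicate block. Leaving out 1 library gave edgeR adjusted p values of 0.0189 (without Control replicate 3) to 0.285 (without Prmt1-null replicate 2).

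H2-K1 (chr17:33996017-34000347, minus strand) had 30700, 33850 and 35080 normalized counts in Control and 40230, 38980 and 36010 in Prmt1-null iGBs. The groups again did not overlap, with the male library the lowest of each group. The means were 33210 ± 2260 and 38410 ± 2170 (SD, n = 3), or 116% of Control. The H2-K1 log2 fold change was 0.21 with a standard error of 0.0697, an interval of 0.06 to 0.359 and an adjusted p of 0.182 from edgeR. DESeq2 gave an adjusted p of 0.0363. It called 2 of the 10 genes, H2-K1 and H2-D1, and 5.76% of the 12955 genes to which it gave an adjusted p (2.56% as higher).

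H2-T23 and H2-Q4 encode non-classical heavy chains, of which the H2-T23 product Qa-1b presents leader peptides of other class I chains to NK cell receptors. H2-T23 (chr17:36029773-36032855, minus strand) had 6980, 7293 and 7270 normalized counts in Control and 8006, 7814 and 7274 in Prmt1-null iGBs. The male Prmt1-null library fell within the Control range. Its log2 fold change was 0.1 (standard error 0.0591, edgeR adjusted p = 0.497). H2-Q4 (chr17:35379617-35385290, plus strand) had 5460, 5268 and 4980 normalized counts in Control and 6418, 6127 and 5113 in Prmt1-null iGBs. Both female Prmt1-null libraries were above every Control library, and the male one was below 2 of them. Its log2 fold change was 0.169 (standard error 0.0784, edgeR adjusted p = 0.369), with 0.106 without Prmt1-null replicate 1 and 0.26 without Prmt1-null replicate 3.

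B2m (chr2:122147686-122153083, plus strand), the light chain common to all these heavy chains, had 306800, 302600 and 315300 normalized counts in Control and 350000, 317500 and 319500 in Prmt1-null iGBs. The groups did not overlap, but the gap was narrow and only Prmt1-null replicate 1 stood well above the rest. The means were 308200 ± 6460 and 329000 ± 18200 (SD, n = 3), or 107% of Control. For B2m the log2 fold change was 0.094 (standard error 0.0538, edgeR adjusted p = 0.483), and 0.052 without Prmt1-null replicate 1.

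Tap1 and Tap2 encode both chains of the transporter that brings peptides into the endoplasmic reticulum. Tap1 (chr17:34187553-34197225, plus strand) had 11760, 12160 and 13660 normalized counts in Control and 14640, 14400 and 13130 in Prmt1-null iGBs. Its log2 fold change was 0.166 (standard error 0.0705, edgeR adjusted p = 0.31), and the male Prmt1-null library lay below the highest Control library. Tap2 (chr17:34203527-34216321, plus strand) had 3035, 3188 and 3565 normalized counts in Control and 3677, 3700 and 3170 in Prmt1-null iGBs, and the log2 fold change was 0.108 (standard error 0.0802, edgeR adjusted p = 0.612). For Tap2 it was 0.062 without Control replicate 1, 0.177 without Control replicate 3 and 0.176 without Prmt1-null replicate 3. The libraries kept nearly the same order for both chains. Tapbp (chr17:33915899-33929292, plus strand) had 13010, 14590 and 16290 normalized counts in Control and 16090, 15940 and 16360 in Prmt1-null iGBs. Here the Prmt1-null libraries lay close together and Control replicate 3 reached their level, and the log2 fold change was 0.141 (standard error 0.0754, edgeR adjusted p = 0.447), or 0.067 without Control replicate 1 and 0.226 without Control replicate 3.

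Erap1 (chr13:74639568-74693201, plus strand), the trimming aminopeptidase, showed the smallest difference of the 10, with 9325, 9040 and 8743 normalized counts in Control and 9325, 9419 and 8866 in Prmt1-null iGBs. The log2 fold change was 0.027 with an interval of -0.098 to 0.151 (edgeR adjusted p = 0.884), which holds both small decreases and small increases, and leaving out 1 library gave 0.004 (Control replicate 3) to 0.053 (Control replicate 1). Nlrc5 (chr8:94434356-94527272, plus strand), the transactivator, had 1984, 2102 and 1922 normalized counts in Control and 2851, 2341 and 1890 in Prmt1-null iGBs. It varied most of the 10 among Prmt1-null libraries, with the highest 1.51 times the lowest, and the male library was the lowest of all 6. Its log2 fold change was 0.237 with an interval of -0.018 to 0.491 (standard error 0.119, edgeR adjusted p = 0.414), and it was 0.083 without Prmt1-null replicate 1 and 0.373 without Prmt1-null replicate 3.

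H2-K1 and H2-D1 put the 6 libraries in the same order, and other genes differed in part. Prmt1-null replicate 1 was the highest of the 6 for 7 of the 10 genes, Prmt1-null replicate 2 for 2 and Prmt1-null replicate 3 for 1. Control replicate 1, a male library, was the lowest for 6. Over the 10 genes, the median log2 distance from the Control mean was 0.21 and 0.19 in the female Prmt1-null libraries and 0.04 in the male one. Among Control libraries it was -0.06 in the male and 0.01 and 0.06 in the females.

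Within sex, the 2 female Prmt1-null libraries averaged above the 2 female Control libraries for 10 of the 10 genes, with a median log2 difference of 0.15. The male Prmt1-null library was above the male Control library for 7 of 10, with a median of 0.06. For H2-D1 both sexes gave nearly the same difference, 0.34 in females and 0.37 in males, and for H2-K1 they gave 0.2 and 0.23. Nlrc5 (0.36 and -0.07), H2-Q4 (0.29 and -0.09) and Erap1 (0.08 and -0.07) were higher in Prmt1-null females and lower in the Prmt1-null male. Tapbp had the larger difference in males (0.06 in females and 0.33 in males). The male library was below the mean of the females for 8 of the 10 genes in Control and for 9 in Prmt1-null iGBs. With 1 male per group, sex cannot be told apart from that single mouse, and the difference between the sexes was not tested.

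The balance between chains was compared next. The classical heavy chain sum, H2-K1 plus H2-D1, was 346, 386 and 411 FPKM in Control and 484, 473 and 424 FPKM in Prmt1-null iGBs, a log2 difference of 0.275, which unlike the following ratios depends on the scaling between libraries. The ratio of B2m to this sum was 18.6, 16.4 and 16.1 in Control and 15.2, 14.1 and 15.8 in Prmt1-null iGBs, a log2 difference of -0.182 that was -0.118 without Control replicate 1. On this scale per length, B2m thus stood many-fold above H2-K1 and H2-D1 together in all 6 libraries. The ratio of H2-K1 to H2-D1 was 1.2, 1.17 and 1.1 in Control and 1.04, 1.02 and 1.09 in Prmt1-null iGBs, a log2 difference of -0.136. For each of these 3 quantities the groups did not overlap, and the two-sided exact permutation test gave p = 0.1, the smallest p that 3 against 3 libraries allow.

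**Figure D2:**
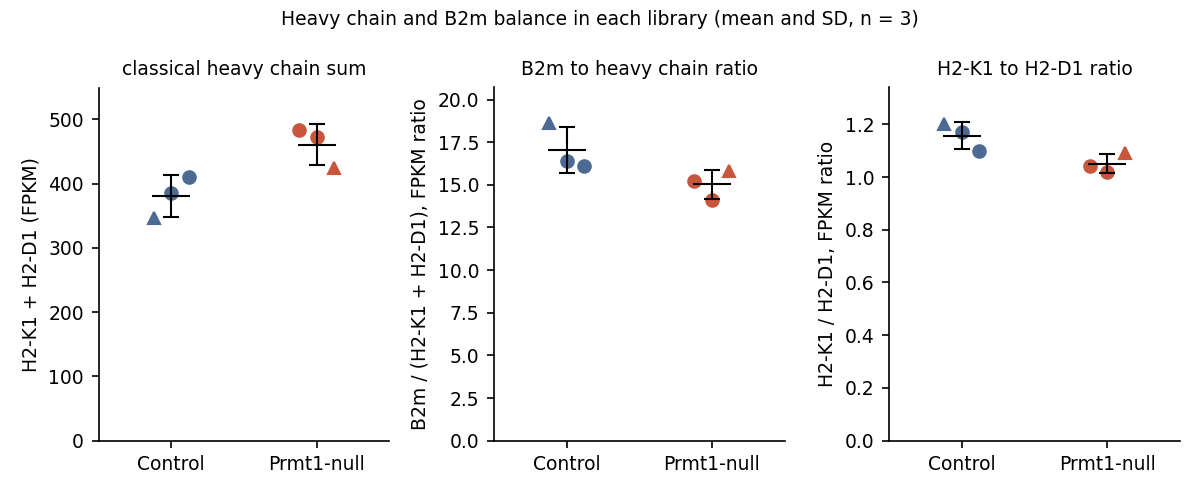
The sum of H2-K1 and H2-D1 (FPKM, left), the ratio of B2m to that sum (middle) and the ratio of H2-K1 to H2-D1 (right) in each library of Control (blue) and Prmt1-null (red) iGBs. Circles are females, triangles males and bars the mean ± SD of 3 libraries. The sum was 381 ± 32.6 and 460 ± 32, the B2m ratio 17 ± 1.36 and 15 ± 0.868, and the H2-K1 to H2-D1 ratio 1.15 ± 0.0477 and 1.05 ± 0.0334, in Control and Prmt1-null iGBs.

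Shares of the heavy chain pool were taken over the 23 H2 heavy chain genes with a known length, on the FPKM scale. H2-K1 made up 32.8% ± 0.183 of the pool in Control and 32% ± 0.783 in Prmt1-null iGBs (SD, n = 3). H2-D1 made up 28.4% ± 1.18 and 30.5% ± 0.347. H2-T23 held 7.23% ± 0.331 and 6.53% ± 0.205, and H2-Q4 5.88% ± 0.663 and 5.53% ± 0.215. The classical chains were thus the bulk of the pool in both groups. On this scale per length, H2-Q6 was the most abundant non-classical chain, at 8.39% ± 0.344 and 9.27% ± 0.747. Without scaling to length, H2-Q7 had more normalized counts (means of 6540 and 8048) than H2-Q6 (6043 and 7936). The shares of the pool sum to a fixed total, so a larger share of 1 gene lowers the others.

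Heavy chain genes are near copies of each other, which limits how reads can be assigned. Of all 50-base windows in the annotated transcripts of H2-K1, 9.63% were also found in a transcript of another gene, and of H2-D1 12.8%. The share was 14.5% for H2-T23 and 36.4% for H2-Q4, whose windows were shared with the antisense gene Gm11131 (15.3%) and with H2-Q6 (9.68%). H2-K1 and H2-D1 shared 141 such windows with each other. The authors kept reads that aligned to at most 2 places, and 5.53% of H2-K1, 9.49% of H2-D1, 8.77% of H2-T23 and 10.4% of H2-Q4 windows occurred in 2 or more other genes. Reads from such stretches can be lost or counted on another copy, so the levels of these 4 genes are uncertain to that extent. The same limit applies to the other heavy chains reported below, whose own windows were not counted. H2-D1 shared 4.75% of its windows with H2-Q7 and 4.28% with H2-Q6.

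Other members shared sequence with overlapping genes more than with copies. Tapbp shared 20.3% of its windows with the antisense gene Gm19412, Erap1 10.7% with Cast on the opposite strand and Tap2 9.22% with Gm15821. Tap1 and Psmb9 overlap on opposite strands and shared 2.88% of Tap1 windows. The kit marks strand, but the strand setting of the counting is not given in the sources used here, so reads of such partners may not have been told apart. B2m shared no window with another gene, and Nlrc5 0.339%.

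**Figure D3:**
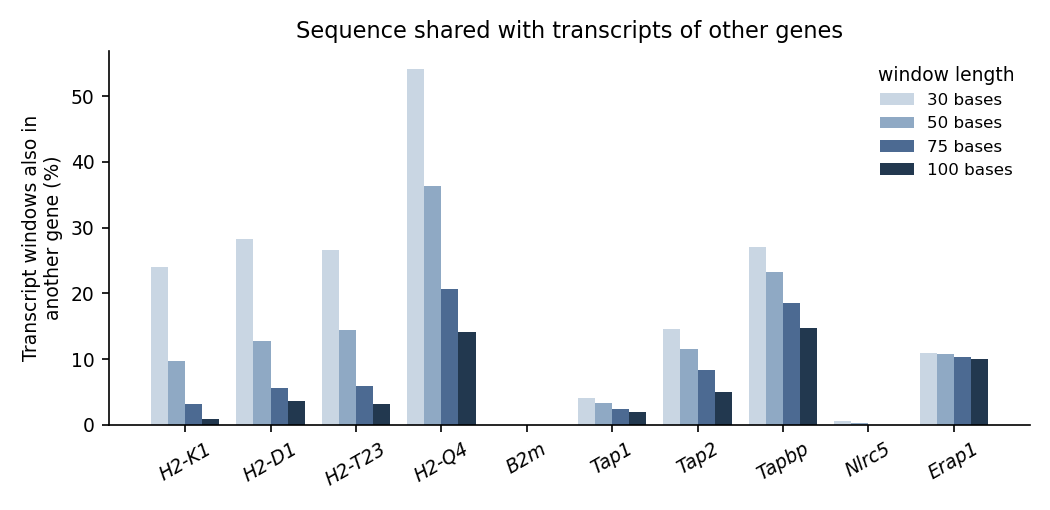
Share of each gene's annotated transcript windows (%, y axis) that also occur in a transcript of another gene, for windows of 30, 50, 75 and 100 bases (light to dark bars). H2-Q4 shared the most at 30, 50 and 75 bases, Tapbp the most at 100 bases (14.8%), and B2m none at any length.

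The rest of the class I pathway was described from lists chosen by function, with 73 genes besides the 10, of which 69 were in the table and 63 were tested. Of these, 0 passed an adjusted p under 0.05 in edgeR's test in either direction. At an unadjusted p under 0.05, 10 were higher and 4 lower, where 6.5% of all genes tested were higher and 7% lower. A log2 fold change above 0 was found for 42 of the 63, against 49.9% of all genes. Their median was 0.054, against 0.154 for the 10 genes. DESeq2, which called 2.56% of its genes as higher, called 5 of these genes (H2-Q6, H2-Q7, Calr, Uggt1 and Psmb9), all higher in Prmt1-null iGBs.

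Among the 18 other class I and class I-like heavy chains tested, 12 had a higher and 6 a lower level in Prmt1-null iGBs. Of the higher ones, 3 had an unadjusted p under 0.05. Over all genes tested, 49.9% had a log2 fold change above 0 and 6.5% were higher at that p. H2-Q6 and H2-Q7 encode Qa-2-type chains. H2-Q6 normalized counts were 5335, 6278 and 6516 in Control and 8794, 8487 and 6528 in Prmt1-null iGBs, for a log2 fold change of 0.393 (standard error 0.102, edgeR adjusted p = 0.0847, or 0.0269 with a log2 fold change of 0.515 when Prmt1-null replicate 3 was left out). Those of H2-Q7 were 5975, 6790 and 6854 in Control and 9046, 8100 and 6999 in Prmt1-null iGBs, for a log2 fold change of 0.299 (standard error 0.0859, edgeR adjusted p = 0.119). With sex as an edgeR covariate the adjusted p was 0.00675 for H2-Q6 and 0.0336 for H2-Q7. In both, the male Prmt1-null library stood just above the highest Control library, the order seen for H2-K1 and H2-D1. H2-M5, a gene of low level, had a log2 fold change of 0.471 (edgeR adjusted p = 0.243) and its groups overlapped.

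All 5 loading complex chaperones tested had a log2 fold change above 0, as did 49.9% of all genes. The median of the 5 was 0.208. Uggt1, the glucosyltransferase that returns unfolded glycoproteins to calreticulin, had 11930, 11520 and 11750 normalized counts in Control and 13500, 14050 and 13110 in Prmt1-null iGBs (log2 fold change 0.208, edgeR adjusted p = 0.105). Calr, which encodes calreticulin, had 78650, 80320 and 76010 in Control and 86050, 89480 and 99460 in Prmt1-null iGBs (log2 fold change 0.227, edgeR adjusted p = 0.119). Calr was highest in the male Prmt1-null library, in which H2-K1 and H2-D1 were lowest of the 3 Prmt1-null libraries. Tapbpl, a tapasin-related peptide editor, had a log2 fold change of 0.25 (edgeR adjusted p = 0.407). The chaperones serve many glycoproteins besides class I.

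Of the 6 immunoproteasome and activator genes tested, 5 had a log2 fold change above 0, against 49.9% of all genes. For 3 of them the unadjusted p was under 0.05, against 6.5% of all genes as higher. The median of the 6 was 0.159. Psmb9, the LMP2 subunit encoded beside Tap1, had 3144, 3414 and 3468 normalized counts in Control and 4086, 4043 and 3777 in Prmt1-null iGBs (log2 fold change 0.248, standard error 0.0654, edgeR adjusted p = 0.0905). Psmb8, the LMP7 subunit, and Psme1, a subunit of the PA28 activator, had log2 fold changes of 0.158 and 0.16 (edgeR adjusted p = 0.261 and 0.204). The groups of these 3 of the 6 genes did not overlap, with Prmt1-null higher, as for 9.95% of all genes.

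Of the 6 other peptide trimming genes tested, 5 had a log2 fold change above 0, against 49.9% of all genes. Lnpep, an endosomal aminopeptidase used in cross-presentation, went the other way by a wide margin. Its normalized counts were 30040, 25730 and 14960 in Control and 3054, 3102 and 14250 in Prmt1-null iGBs, so that the female Prmt1-null libraries were far below all others and the male one was close to Control replicate 3. Lnpep had a log2 fold change of -1.793 with a standard error of 0.459 and an edgeR adjusted p of 0.0812. Without Prmt1-null replicate 3 it had -2.938 (edgeR adjusted p = 0.000252), and without Control replicate 3 it had -2.035 (edgeR adjusted p = 0.0362). The cytosolic peptidases Thop1 and Blmh had log2 fold changes of 0.486 and 0.152 (edgeR adjusted p = 0.23 and 0.24).

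**Figure D4:**
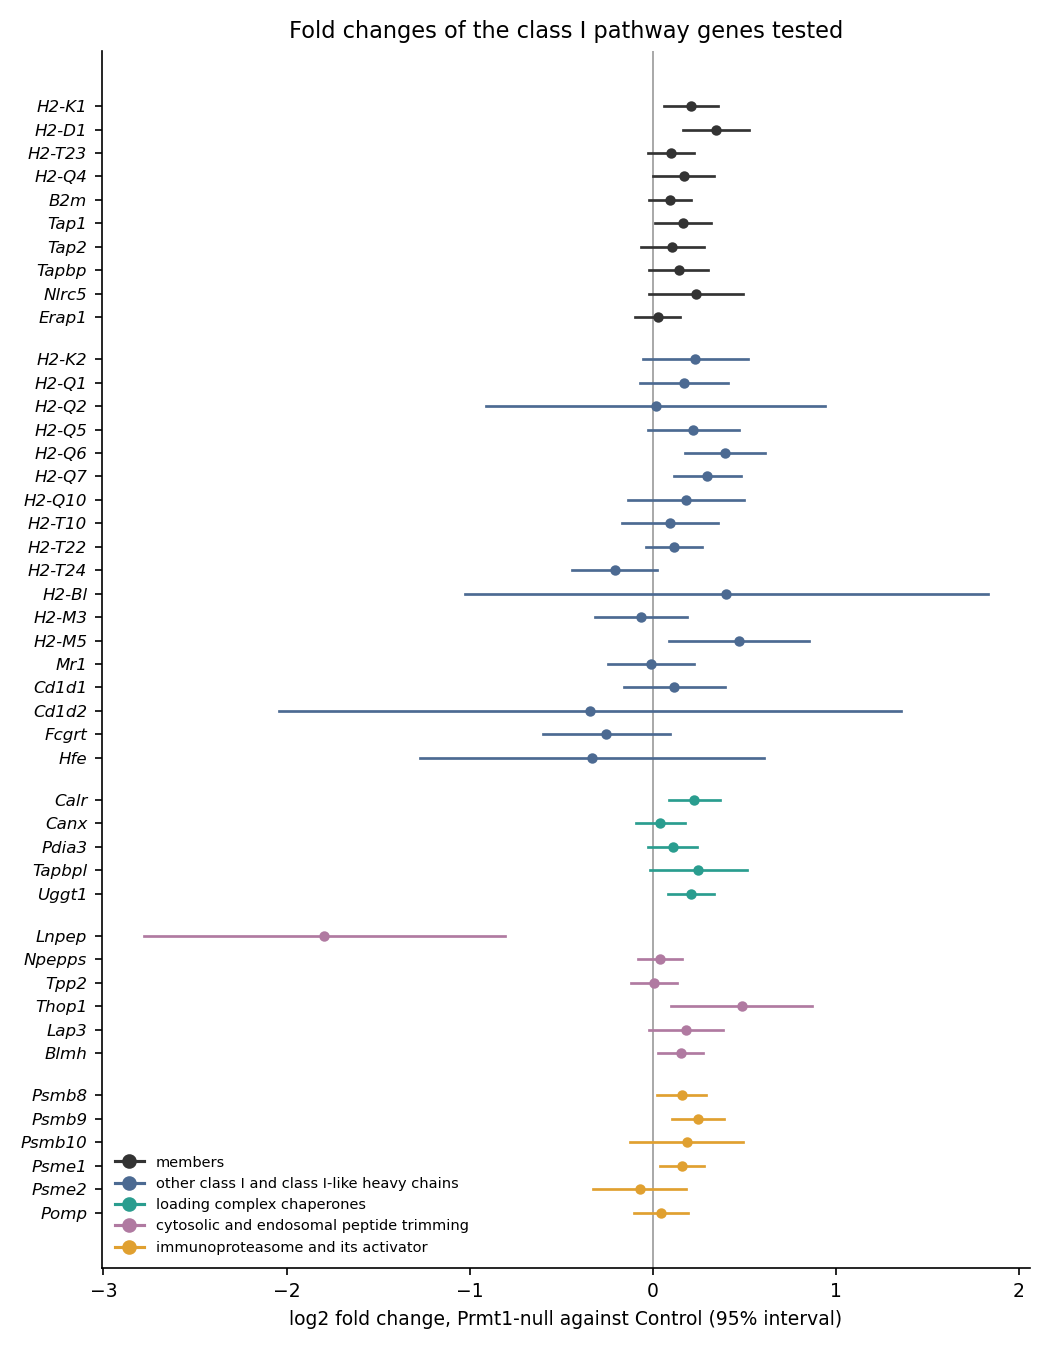
Log2 fold change of Prmt1-null against Control iGBs (x axis, points) with its 95% interval (lines) for the 10 class I genes (black) and the tested heavy chains, loading chaperones, trimming enzymes and immunoproteasome genes (coloured by list). All 10 class I genes and all 5 chaperones lie to the right of 0, with most of the intervals reaching 0 or beyond, and Lnpep lies far to the left at -1.793.

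The regulators of class I transcription gave no common direction. Of the 19 tested, 11 had a log2 fold change above 0 and 8 below, with a median of 0.01. Nfyb, a subunit of the NF-Y factor that binds the Y box, had the smallest p, with a log2 fold change of -0.262 (edgeR adjusted p = 0.272). Nfkb1, which encodes the p50 subunit of NF-κB, had -0.131 (edgeR adjusted p = 0.391) and Irf9, part of the interferon-activated ISGF3 complex, 0.156 (edgeR adjusted p = 0.424). Of the 9 interferon receptor and kinase genes, 4 had a log2 fold change above 0 and 5 below. The kinase Jak2 had -0.201 (edgeR adjusted p = 0.214), the feedback inhibitor Socs3 -0.366 (adjusted p = 0.303) and the receptor chain Ifnar1 0.084 (adjusted p = 0.556).

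MHC class II genes, which B cells use to present antigen to CD4 T cells, served as a pathway beside class I. Of 11 tested, including the transactivator Ciita, 5 had a log2 fold change above 0 and 6 below, with a median of -0.024. The peptide loading genes H2-DMb2 and H2-DMb1 had log2 fold changes of -0.193 and -0.129 and H2-DMa 0.188 (edgeR adjusted p = 0.187, 0.344 and 0.288).

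Markers of other cells were read beside these differences. The plasma cell markers summed to 1140 to 1240 CPM in Control and 1280 to 1380 CPM in Prmt1-null iGBs, without overlap. Irf4 and Xbp1 weigh most in this sum, with Control means of 27160 and 18770 normalized counts. Mzb1 followed at 9159, and Sdc1 was at 79.19. Xbp1, which drives the secretory programme, had a log2 fold change of 0.292 (edgeR adjusted p = 0.0571). Irf4 and Prdm1 had 0.162 and 0.285 (edgeR adjusted p = 0.337 and 0.384). Of the 6 plasma cell markers tested, 5 had a log2 fold change above 0, against 49.9% of all genes, and 0 passed. Jchain had -0.09 (edgeR adjusted p = 0.669). Of the 18 feeder markers tested, 14 had a log2 fold change above 0 and 4 below, where 49.9% of all genes were above 0. These feeder markers had a median of 0.187, and 0 passed. Among them Col1a1, Sparc and Acta2 had log2 fold changes of 0.441, 0.636 and -0.825 (edgeR adjusted p = 0.173, 0.36 and 0.384). The highest feeder sum, 49.9 CPM, was in Prmt1-null replicate 3, the Prmt1-null library with the lowest H2-K1 and H2-D1. The 8 myeloid markers summed to 37.7 to 42.9 and 39.8 to 45.5 CPM, with C1qa and C1qb at 0 throughout. Adgre1 (Emr1 in the table) rose from 352.8 ± 52.1 to 585.5 ± 64.6 normalized counts (SD, n = 3), a log2 fold change of 0.73 with an edgeR adjusted p of 0.0319, while Csf1r and Lyz2 had 0.328 and -0.755 (adjusted p = 0.684 and 0.788). T cell markers stayed at 3.34 CPM or less in sum, and Cd3g, Cd8a and Trac had log2 fold changes of 1.001, 1.076 and 0.473 (edgeR adjusted p = 0.669, 0.712 and 0.744). The dendritic and NK cell markers, Flt3 by far the most abundant of those named, summed to 109 to 111 and 103 to 110 CPM, and Flt3, Ncr1 and Gzma had log2 fold changes of -0.064, 0.891 and 0.368 (edgeR adjusted p = 0.697, 0.711 and 0.735). The B cell markers Blk, Cd79b and Ptprc had log2 fold changes of 0.195, 0.195 and -0.166 (edgeR adjusted p = 0.225, 0.257 and 0.224). The part of these cell types in the class I differences was not tested.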

How the data were processed

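RNA-seq (total RNA, ribosomal RNA depleted, stranded kit) of 6 libraries of iGBs was used, 1 per mouse, grouped by the labels. Per the study's methods and the processing notes of the submitters, the authors used Trimmomatic 0.32 for trimming and STAR 2.3.0e for alignment to mm10, kept primary alignments to at most 2 places and counted them on Ensembl exons with featureCounts 1.4.4. The authors deposited raw counts per gene, not normalized. The study's methods give another IL-4 dose than the labels. Read length is not given in the sources used here.

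Genes on chromosome Y (398) were left out, low counts were removed by filterByExpr (minimum count 10), and TMM-normalized counts of 18268 genes were compared with edgeR 4.0.16 under R 4.3.3 (glmQLFit, glmQLFTest, Benjamini-Hochberg, adjusted p under 0.05), a step tested on simulated data. Normalized counts are scaled to the mean library. FPKM used the union exon length of GENCODE release M21, to which 37693 genes were matched by ID and 803 by symbol, and 521 were not. For ratios, the exact permutation test over the 20 arrangements was two-sided. Alternatives were DESeq2 1.42.0, limma-voom 3.58.1, DESeq2 size factors, no low-count filter, the replicate number as a block, sex as a covariate, chromosome Y kept and each library left out. Females alone, and 5 of these settings for the pathway lists, were added after the data had been seen. The 10 genes and all lists were chosen with earlier results of these data known. All 10 are named, and of each other list the 3 genes with the smallest p and any gene past the threshold. The CPM floors cover counting error only, since reads carry no molecular identifiers. Protein sequences were not used here. One B cell marker was left out of its list and is not reported here.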

Additional observations from a re-analysis of the deposited data

How the results depend on the processing

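The direction of all 10 class I genes was the same in every alternative and with each library left out, and 0 were called lower in any. Against 218 genes called across the table, DESeq2 called 746, no filter on low counts 710, sex as a covariate 288, limma-voom 251, the replicate block 152 and females alone 113, and leaving out 1 library gave 31 to 350 (31 without Prmt1-null replicate 2 and 350 without Control replicate 3). Of the 10 genes, 0 were called higher in edgeR, 2 by DESeq2 (H2-K1 and H2-D1), and 1, H2-D1, each by limma-voom, with no filter, with sex as a covariate and in females alone. Leaving out 1 library gave 0 to 1, the 1 being H2-D1 without Control replicate 3. The adjusted p of H2-D1 ran from 6.05e-05 to 0.106 over the 8 full alternatives, with log2 fold changes of 0.337 to 0.349. Of the other pathway genes, 0 were called in edgeR, 5 by DESeq2, 1 by limma-voom (Lnpep), 6 with no filter, 3 with sex as a covariate (H2-Q6, H2-Q7 and Lnpep), 2 in females alone (H2-Q6 and Lnpep), 1 with the replicate block (Lnpep) and 0 to 2 with 1 library left out. The cause of these moves was not tested. Same-numbered libraries did not deviate together (correlations -0.072, 0.048 and -0.077). These values cannot show whether the mice had been prepared in numbered pairs. With the replicate block the median of the 10 genes was 0.155 and 0 were called. The median was 0.151 to 0.158 over the full alternatives and 0.095 (without Prmt1-null replicate 1) to 0.194 with 1 library left out. With 1 library left out, log2 differences ran from 0.208 to 0.333 for the heavy chain sum, from -0.222 to -0.118 for the ratio of B2m to it and from -0.169 to -0.111 for the ratio of H2-K1 to H2-D1. The log2 fold changes of H2-T23, B2m, Tap2, Tapbp, Nlrc5 and Erap1 lay within 2 standard errors of 0 with 3 mice per group.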
